A study of Homo sapiens with 5 samples.

Results

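Erythropoietin (Epo) was compared with granulocyte-macrophage colony-stimulating factor (GM-CSF) in TF-1 cells carrying an empty vector, as the difference of the deposited log2 signals of 2 arrays, Epo minus GM-CSF, out of 5 arrays in the series. The members were all probe sets that are no array control and have a single gene symbol, which were 19065 of 22283 probe sets and stood for 11963 genes. A floor was set at a log2 signal of 4.45, the 40th percentile over the non-control probe sets, and lower values were raised to it. With at least 1 of the 2 arrays above it, 12200 probe sets and 8581 genes were compared, each gene by its brightest probe set, chosen by its mean over all 5 arrays. A gene or probe set is called higher or lower here at 2-fold, a log2 difference of 1. Each group had 1 array, so there was no replicate, no test and no p-value.

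TF-1 is a human erythroleukaemia line that was kept in GM-CSF at 5 ng/mL with 10% fetal calf serum. All 5 groups were TF-1 cells transduced with a GFP-marked MSCV retrovirus, left overnight without growth factor and given cytokine for 6 h. Vector cells had the empty virus and received GM-CSF at 5 ng/mL, Steel factor (SF, the ligand of KIT) at 20 ng/mL, or Epo at a dose not given in the labels. The virus of the DbSCL groups also held a form of SCL, the TAL1 product, that cannot bind DNA, and these cells received SF or Epo. There was no array of cells without cytokine, so each value below is a difference between cytokines and cannot be assigned to either.

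Epo binds a homodimeric receptor, EPOR, and GM-CSF binds an alpha chain, CSF2RA, paired with the common beta chain, CSF2RB. Both receptors act through the kinase JAK2 and the transcription factor STAT5, with the RAS and ERK and the PI3-kinase pathways beside it. In erythroid progenitors Epo is known for keeping cells alive and for accompanying haem and globin synthesis, and GM-CSF for supporting myeloid progenitors.

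The signals of cell type markers were set beside the floor. Of 9 erythroid markers 6 had a single-symbol probe set, and these 6 (GATA1, KLF1, EPOR, TFRC, ALAS2 and AHSP) were above the floor on both arrays, as were CD34, KIT and MYB of the progenitor markers. Markers of other cell types were also above the floor on both arrays: 3 of 3 megakaryocyte, 2 of 2 mast cell, 3 of 4 lymphoid, 3 of 4 stromal and 3 of 6 myeloid markers, with ELANE, CD14 and CSF1R below it on both. Among them ITGA2B read 8.15 under GM-CSF and 8.88 under Epo, and COL1A1 7.26 and 7.18. The median signal of the lymphoid markers was 5.44 under GM-CSF and 5.22 under Epo, and that of the stromal markers 5.20 and 4.99. Since markers of many cell types passed, being above this floor does not tell cell types apart and is no check of the cell line label. The spread of a difference between single arrays, estimated without replicates from the DbSCL difference under SF minus that under Epo, ran from 0.13 to 0.24 on the log2 scale over 10 bins of signal. It leaves out any shift that many genes of an array share.

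The difference between the cytokines was one-sided. By the brightest probe set 297 of the 8581 genes were called higher under Epo (3.46%) and 10 were called lower (0.117%). Of the probe sets 417 of 12200 (3.42%) were called higher and 21 (0.172%) lower. The centre of the distribution lay at 0, and its upper side was the wider one. Over all 8581 genes the median difference was 0.00, with quartiles of −0.21 and 0.31, and 3891 genes lay above 0 against 4136 below. At 1.5-fold the counts were 1134 higher and 210 lower, and at 3-fold 15 higher and 2 lower. The 297 had a median difference of 1.19 and the 10 a median of −1.26. GM-CSF was below the floor for 4 of the 297, for which the difference is measured from the floor.

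The difference also moved with brightness. In the 3 dimmest of 10 bins of mean signal the median difference was between −0.15 and −0.09, and the share of genes called higher was 0.00, 0.117 and 2.21%. In the 2 brightest bins the medians were 0.32 and 0.30, and 7.58 and 5.48% of the genes were called higher. A list of bright genes is therefore to be read beside these medians rather than beside 0. The number of called genes in a list is likewise to be read beside the 3.46% called higher among all genes. Quantile normalization kept 168 of the 297 at 2-fold, and a loess fit of the difference on the mean signal kept 184.

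**Figure D1:**
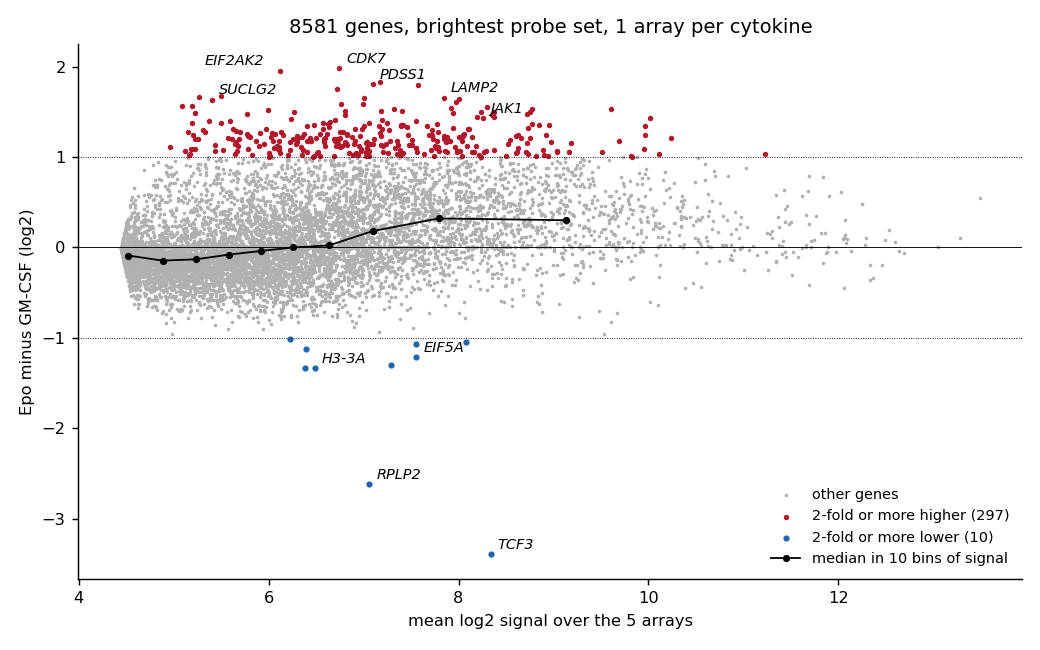
Difference Epo minus GM-CSF (log2, vertical axis) against the mean log2 signal over the 5 arrays (horizontal axis) for 8581 genes, 1 point per gene, with the median in 10 bins of signal as a black line and dotted lines at 2-fold. The 297 genes called higher form the upper edge of a broad cloud, the 10 called lower are scattered points with TCF3 (−3.39) and RPLP2 (−2.61) far below the rest, and the black line dips from −0.09 to −0.15, then climbs to 0.32 and ends at 0.30.

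Most of the genes called higher rested on a single probe set. Of the 297 genes 192 had 1 probe set in the comparison, and 105 had at least 2. Of those 105, all probe sets were at 2-fold in 7, all lay above 0 in 63, and at least 1 lay at or below 0 in 42. The 137 other probe sets of these genes had a median of 0.21 and 12 were at 2-fold, against a median of 0.00 and 120 at 2-fold among the 3614 other probe sets of all genes. The 10 lower genes gave 19 other probe sets, with a median of −0.25, of which 17 were below 0 and 0 were at 2-fold. The choice of probe set also hid calls: 108 probe sets called higher belonged to 104 genes whose brightest probe set was not.

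Among the 2498 genes with at least 2 probe sets compared, 15 (0.6%) were at 2-fold higher in at least 2 of them and 1 (0.04%) was lower. SUCLG2 encodes the beta subunit of the GTP-forming succinyl-CoA ligase of the citric acid cycle. It was below the floor under GM-CSF in both compared probe sets (4.27 and 4.27) and read 6.08 and 6.03 under Epo. Measured from the floor, its differences were 1.63 and 1.59. Its other probe sets were below the floor on both arrays and were not compared. SLC38A2, a neutral amino acid transporter, read 7.41 under GM-CSF and 8.91 under Epo in one probe set and 7.23 and 8.58 in the other, differences of 1.50 and 1.35. Both compared probe sets of each gene thus gave nearly the same difference.

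The lysosomal membrane protein gene LAMP2 gave 1.66 (7.06 against 8.72) and 1.24 (5.10 against 6.34). ASF1A, a histone chaperone, gave 1.31 and 1.32, and SNX4, a sorting nexin of endosomes, 1.34 and 1.13. PSMA1, an alpha subunit of the proteasome core, gave 1.24, 1.30 and 1.10 in 3 probe sets. All of their compared probe sets were at 2-fold, and a further one of LAMP2 was below the floor on both arrays. RPA1, the large subunit of the single-strand DNA binding complex, gave 1.05 and a larger 1.89 in its dimmer probe set.

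In the other genes at least 1 probe set was short of 2-fold. PGK1 of glycolysis gave 0.99 in the brightest probe set and 1.24 and 1.05 in the others, and DCTD, which makes dUMP, gave 1.17, 1.43 and 0.71. ACTR3 of the actin-nucleating Arp2/3 complex gave 0.58 in the brightest and 1.22 and 1.31 in the dimmer probe sets. STAU1, an RNA-binding protein, gave 0.45 in the brightest, then 1.09, 1.06 and 0.91. SSR1, of the translocon-associated complex, gave 0.82 in the brightest, and 1.16, 1.16 and 0.26. The brightest probe set of these 3 genes gave a smaller difference than most of the others.

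A few genes had probe sets that went apart. PHACTR2 gave 1.80, 1.08 and −0.04, and the RNA helicase gene DDX3X gave 1.01, 1.91, 0.21 and −0.09. HLA-DPA1, an MHC class II alpha chain, gave 1.08 and 1.19, and 0.14 in a probe set near the floor. UBE2G1, a ubiquitin-conjugating enzyme, held the largest single difference on the higher side, 2.35 (6.03 against 8.38), but its brightest probe set gave 0.83 (7.68 against 8.51). EIF2AK2, the kinase PKR that senses double-stranded RNA, gave 1.95 in one probe set and −0.61 in the other.

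On the lower side RPL38, a protein of the large ribosomal subunit, was the gene that met the rule, with −1.20 (9.56 against 8.36) and −1.06 (9.76 against 8.70). Its brightest probe set gave −0.41 (11.93 against 11.51). EIF5A came close, with −1.21 and −0.99, and −0.09 in a dim probe set. TCF3, which encodes the E proteins that pair with SCL, had the largest difference of all, −3.39 (10.00 under GM-CSF against 6.60 under Epo), in 1 of 11 probe sets, and its others lay between −0.63 and 0.00. The platform's annotation alone ties that probe set to TCF3.

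**Figure D2:**
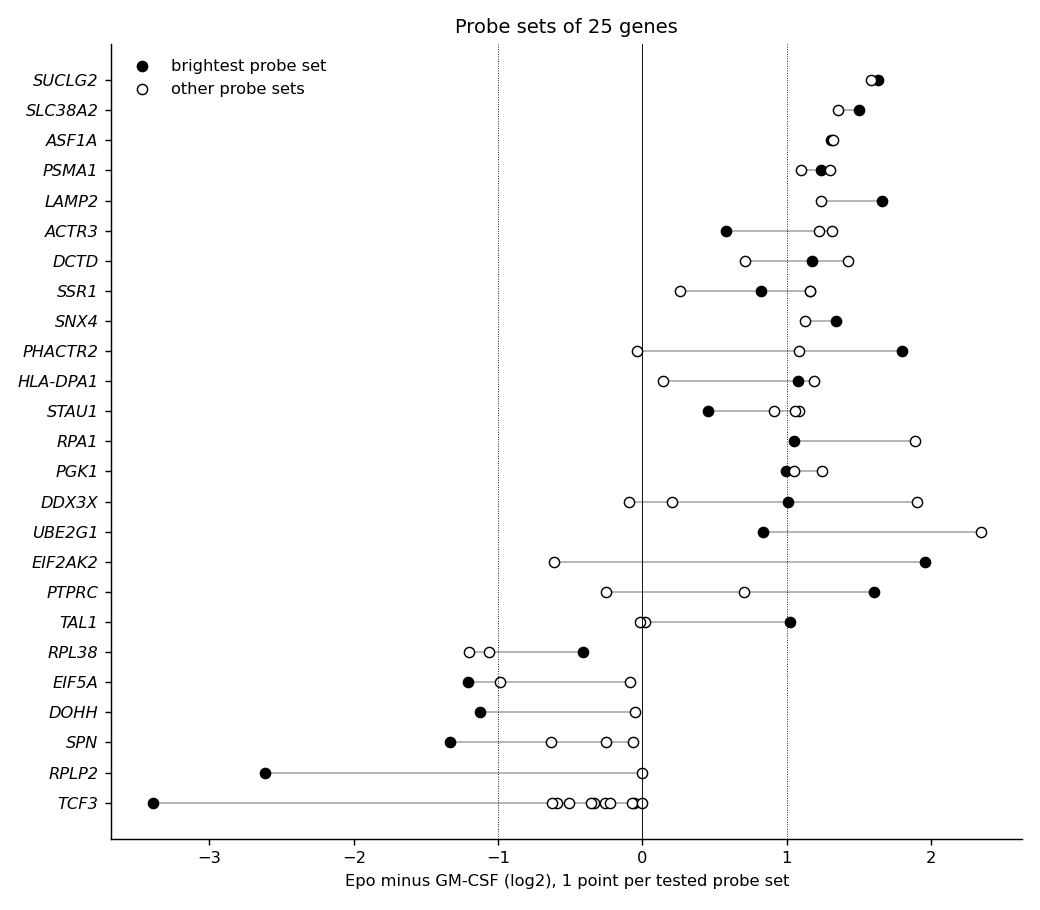
Difference Epo minus GM-CSF (log2, horizontal axis) of every compared probe set of 25 genes (rows), with the brightest probe set filled and the others open, and dotted lines at 2-fold. SUCLG2 (1.63 and 1.59), ASF1A and PSMA1 have probe sets close together, whereas those of EIF2AK2 (1.95 and −0.61), UBE2G1 (0.83 and 2.35), RPLP2 (−2.61 and 0.00) and TCF3 (−3.39 to 0.00) lie far apart.

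The kind of probe set went with the direction. Affymetrix names probe sets that can match transcripts of other genes _x_at, and those that match several transcripts of usually 1 gene _s_at. Of 1410 _x_at probe sets 15 (1.06%) were higher and 8 (0.567%) lower. Of 4744 _s_at probe sets 204 (4.30%) were higher and 7 (0.148%) lower, and of 6024 plain _at probe sets 198 (3.29%) and 6 (0.0996%), with a few of other kinds left out of this split. The _x_at probe sets thus held 8 of the 21 lower calls, among them RPL38, EIF5A and SPN.

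Receptor and signalling genes came first by role. EPOR gave −0.34 (8.80 under GM-CSF against 8.46 under Epo), while 2 dimmer probe sets gave 0.03 and 0.13. CSF2RA lay near the floor at 4.82 and 4.68. CSF2RB, the beta chain shared with the interleukin 3 and 5 receptors, was called higher (1.11, from 7.25 to 8.36), but gave 0.77 after quantile normalization. JAK1, a kinase of interferon and interleukin receptors, was called higher too (1.43, from 7.42 to 8.85), and stayed at 2-fold under quantile normalization (1.09) and loess (1.13). The other 21 of 23 compared genes of the receptor and JAK-STAT list were not called, among them JAK2 (0.10), STAT5A (0.27) and STAT5B (0.20). The list's median of 0.24 became −0.05 under quantile normalization.

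Of 15 STAT5 target and feedback genes, 0 were called in either direction, with a median of 0.08 that became −0.06 under quantile normalization. With 3.46% of all genes called higher, the list is too short for 0 calls to set it apart. CISH, a feedback inhibitor induced by STAT5, was almost the same on both arrays (7.43 and 7.40). SOCS3 gave −0.46, SOCS2 0.18, PIM1 0.30, BCL2L1, the survival gene BCL-XL, 0.08, and MYC 0.55. Among 22 genes induced early by ERK signalling or feeding back on it, 0 were called and 15 lay below 0, with a median of −0.09. This list too is short for a count of calls to be set against all genes. JUND was the furthest at −0.72 (9.94 against 9.22). FOS gave −0.08 and DUSP1 −0.06. The probe sets of these genes were dim, with a median signal of 5.86.

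Some genes of haem synthesis and handling were called higher, but not the erythroid form of its first enzyme. Of 17 compared genes 3 (17.6%, against 3.46% of all genes) were called higher and 0 lower, and 11 lay above 0. The list's median of 0.28 became 0.06 under quantile normalization and 0.09 under loess. UROS, which closes the tetrapyrrole ring, read 5.64 under GM-CSF and 6.85 under Epo (1.21). ALAS1, the housekeeping form of the enzyme of the first step, read 5.57 and 6.69 (1.12), whereas the erythroid form, ALAS2, gave 0.36. HEBP1, a haem-binding protein, read 6.33 and 7.39 (1.06, but 0.90 after quantile normalization). Among the other enzymes FECH, which inserts iron, gave 0.56, CPOX 0.51, PPOX 0.44, UROD −0.01 and ALAD −0.14. HMOX1, which breaks haem down, gave −0.51.

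Of 11 listed globin genes 6 were on the array with a single symbol and compared. Of these 0 were called, too few to set against the 3.46% of all genes: HBB, HBZ and HBE1 were identical on both arrays after the floor, HBD gave 0.38, and AHSP, the chaperone of alpha globin counted with them, gave −0.78 (5.61 against 4.83). NCOA4, the receptor for autophagy of ferritin, was the 1 of 13 iron genes called higher (1.07, from 8.49 to 9.56). Of 21 erythroid membrane and carbonic anhydrase genes CD36, a scavenger receptor of early erythroid cells, gave 1.20 (6.01 against 7.22, with 0.41 in its other probe set), and CA1, carbonic anhydrase 1, gave 1.01 (8.18 against 9.18). The median of that list was −0.10, with 12 of 21 below 0. NCOA4 and CA1 gave 0.69 and 0.67 after quantile normalization.

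Among lineage transcription factors GATA1, the main erythroid factor, was identical on both arrays (6.76), KLF1 gave 0.08 and GATA2 −0.60. HMG20B, a subunit of a corepressor complex that acts with GFI1B, gave 1.23 (5.37 against 6.60), and CBFB, the partner of RUNX proteins, 1.22 (8.10 against 9.31, with 0.18 in its other probe set). These were 2 of 20 in the list (10.0%, against 3.46% of all genes), whose median was −0.01. In the SCL complex list ID2, an inhibitor of helix-loop-helix factors, gave 1.08 with 0.51 in its other probe set. TAL1 gave 1.02 in the brightest and 0.02 and −0.02 in 2 others, so the call holds for 1 of 3 probe sets. After quantile normalization CBFB, ID2 and TAL1 gave 0.84, 0.74 and 0.67. LMO2 and LDB1, which bridge SCL to GATA1, gave 0.56 and −0.35.

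Cell cycle genes were shifted upward as groups. Of 49 mitosis and G2/M genes 5 (10.2%, against 3.46% of all genes) were called higher and 44 lay above 0. Their median was 0.39, at a median signal of 6.85 where all genes had a median between 0.02 and 0.18. PRC1, which bundles the central spindle, gave 1.35 (6.76 against 8.11). MAD2L1 of the spindle checkpoint gave 1.27, the motor KIF11 1.22, cyclin B1, CCNB1, 1.10 (8.07 against 9.17), and SMC2 of condensin 1.03. CDK1, the kinase that cyclin B1 activates, gave 0.55. Of 51 DNA replication and G1/S genes 4 (7.84%) were called higher and 39 lay above 0, with a median of 0.30. These 4 were MCM10 (1.34, from 6.60 to 7.95), ORC3 of the origin recognition complex (1.33, from 5.83 to 7.16), RPA1 (1.05) and the clamp loader subunit RFC4 (1.01). Both lists kept a median above 0 under every alternative, from 0.22 to 0.48 for mitosis and from 0.13 to 0.39 for replication, although CCNB1, RPA1 and RFC4 gave 0.76, 0.69 and 0.69 after quantile normalization. CDKN1B, which encodes the cell cycle inhibitor p27, was called higher as well (1.20, from 4.74 to 5.94).

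Promoters of cell cycle genes are known for E2F sites at the start of S phase and for paired CCAAT boxes in G2/M genes, so the 250 bases before the start site were read for 3 called genes. They come from RefSeq on GRCh38.p14, on the strand of the gene, where 258 of the 297 higher genes, 9 of the 10 lower and 6992 of the 8581 tested had an entry. Capitals mark the match. In ORC3 (chr6:87589885-87590134, plus strand) it is the E2F match GCGGGAAA, which starts 12 bases upstream of the start site. In PRC1 (chr15:90994536-90994785, minus strand) it is 1 CCAAT box, 53 bases upstream. In CCNB1 (chr5:69166900-69167149, plus strand) there are 2, at 87 and 55 bases.
ORC3: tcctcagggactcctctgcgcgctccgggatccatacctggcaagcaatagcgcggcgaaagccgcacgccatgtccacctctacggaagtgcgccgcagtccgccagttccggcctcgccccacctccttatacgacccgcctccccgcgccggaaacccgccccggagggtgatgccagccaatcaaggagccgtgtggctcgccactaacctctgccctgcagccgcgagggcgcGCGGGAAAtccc
PRC1: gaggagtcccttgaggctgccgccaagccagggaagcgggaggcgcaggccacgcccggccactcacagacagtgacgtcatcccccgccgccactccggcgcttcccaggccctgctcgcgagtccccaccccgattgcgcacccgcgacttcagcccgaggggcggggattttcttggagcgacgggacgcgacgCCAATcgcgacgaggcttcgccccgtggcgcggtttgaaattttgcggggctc
CCNB1: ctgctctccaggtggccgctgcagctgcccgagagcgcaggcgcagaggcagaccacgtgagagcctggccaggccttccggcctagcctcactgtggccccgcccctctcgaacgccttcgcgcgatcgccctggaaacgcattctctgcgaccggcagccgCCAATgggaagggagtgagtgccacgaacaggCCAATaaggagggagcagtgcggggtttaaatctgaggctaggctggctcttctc

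An E2F match (TTTCCCGC, TTTGGCGC, TTTCGCGC or TTTGCCGC, either strand) stood in 16 of 45 replication promoters (35.6%), against 2.79% of all 27305 promoters, 4.33% of those of tested genes and 11 of 258 (4.26%) of those called higher. CCAAT on either strand stood in 29 of 42 mitosis promoters (69.0%), against 33.0% of all, 35.8% of tested and 39.5% of higher genes. The matches did not sort the differences within the lists. Replication genes with an E2F match had a median of 0.43 with 1 of 16 called, and those without 0.31 with 3 of 29. Mitosis genes with CCAAT had a median of 0.35 and those without 0.44. The STAT pattern TTCNNNGAA stood in 12 of 258 promoters of higher genes (4.65%), 5.75% of tested genes and 6.78% of all. A match describes these letters in this window and shows no binding.

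Transcription and RNA genes held several of the largest single differences. CDK7, the kinase of the general transcription factor TFIIH, read 5.54 under GM-CSF and 7.52 under Epo (1.98, spread of a difference at this signal 0.21), and GTF2H5 of the same factor 6.27 and 7.44 (1.16). They were the 2 of 9 TFIIH genes called (22.2%, against 3.46% of all genes). The list's median of 0.47 ran from 0.39 to 0.56 over the alternatives. HAT1, a histone acetyltransferase, gave 1.75 (5.79 against 7.54), the chromatin protein gene ADNP 1.38 and the histone demethylase gene KDM3A 1.28. These 3 were the called ones of 59 chromatin genes (5.08%, against 3.46% of all genes), whose median was 0.08 and became −0.01 under quantile normalization. Zinc finger genes named ZNF, with 116 members compared, had 0 calls and a median of −0.05.

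Of 45 nuclear pore and transport genes 6 (13.3%) were called higher, against 3.46% of all genes. In this list 39 lay above 0, with a median of 0.36 (0.22 to 0.43 over the alternatives). RANBP2 gave 1.38, but 0.24 and 0.28 in its other probe sets. The scaffold genes NUP205 and NUP155 gave 1.27 and 1.12, the importin gene KPNA2 1.18 with 0.87 in its other probe set, and NUP153 and NUP37 1.06 and 1.05. After quantile normalization KPNA2 gave 0.85 and NUP155 0.78. Of 30 genes of the RNA exosome, decapping and deadenylation 26 lay above 0 with a median of 0.31, and LSM2 (1.53) and CNOT1 (1.48, with 0.06 in its other probe set) were called. Of 40 splicing factor genes SF3B1 was called (1.21, 0.86 after quantile normalization, and 0.72, 0.12 and −0.03 in other probe sets), and the median of 0.06 became −0.21 under loess.

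The translation machinery split by part. Of 57 cytosolic ribosomal protein genes 0 were called higher and 2 lower, and the median of 0.02 became −0.19 under quantile normalization and −0.25 under loess. Their median signal was 11.41, within the brightest bin. RPLP2, an acidic protein of the ribosomal stalk, read 8.45 under GM-CSF, 6.79 under SF, 5.83 under Epo, 7.56 in DbSCL cells under SF and 6.68 in DbSCL cells under Epo. The difference was −2.61, while a second probe set near the floor gave 0.00. RPL27A gave −1.05 (8.45 against 7.40) in its 1 probe set. The promoter of RPLP2 (chr11:809717-809966, plus strand) is shown as that of the ribosomal gene with the largest difference. It holds TGACGTCA, the full cyclic AMP response element, 93 bases upstream of the start site, as do 3 of 50 ribosomal promoters (6.00%). The element stood in 1.77% of all promoters, 2.97% of those of tested genes, 3.49% of those called higher and 11.9% of mitosis promoters. The promoter of PRC1, a gene called higher, also holds it, unmarked in the sequence above.
RPLP2: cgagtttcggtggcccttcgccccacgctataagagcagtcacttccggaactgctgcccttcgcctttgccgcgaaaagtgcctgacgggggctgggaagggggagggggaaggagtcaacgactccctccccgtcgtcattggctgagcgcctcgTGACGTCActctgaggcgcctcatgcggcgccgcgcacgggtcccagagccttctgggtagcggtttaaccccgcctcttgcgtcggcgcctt

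Initiation factors stood apart from the ribosome in their median. Of 37 compared 0 were called, yet 33 lay above 0 and the median was 0.42, which ran from 0.06 under quantile normalization to 0.51. At their median signal of 8.32 all genes had bin medians of 0.30 to 0.32. EIF2B3, of the exchange factor of EIF2, gave 0.90, the cap-binding protein gene EIF4E 0.83 and EIF2S2 0.83. Of 49 mitochondrial ribosomal protein genes 3 (6.12%, against 3.46% of all genes) were called higher and 38 lay above 0. Their median was 0.30, against 0.18 for all genes in the bin of similar signal, and quantile normalization took it to 0.10. The 3 called were MRPL19 (1.07), MRPL15 (1.06, but 0.70 after quantile normalization) and MRPL57 (just at 2-fold, with −0.06 and 0.22 in its other probe sets).

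EIF5A and the enzymes around it were called in both directions. EIF5A is the translation factor that carries hypusine, an amino acid made from the polyamine spermidine by DHPS and DOHH in turn. EIF5A read 8.22 under GM-CSF, 7.29 under SF, 7.01 under Epo, 7.94 in DbSCL cells under SF and 7.31 in DbSCL cells under Epo. DOHH, the hydroxylase of the second step, read 6.84, 6.08, 5.71, 6.58 and 6.78 in the same order and gave −1.12, with −0.06 in a probe set at the floor. The vector Epo array was thus the lowest of the 5 for both genes, which were called for a low value there. In 7 of the 10 lower genes vector Epo was the lowest array and GM-CSF the highest. On DbSCL Epo DOHH (6.78) was close to GM-CSF (6.84). DHPS, the enzyme of the first step, gave 0.45 (7.02 against 7.47), and 0.73 and 0.27 in its other probe sets.

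Of the polyamine genes of this pathway 6 lay above 0 and 4 below. AMD1, which makes the aminopropyl donor, gave 1.04 and 0.93 in its 2 probe sets. SMS, spermine synthase, gave 1.18 (7.36 against 8.54), SRM, spermidine synthase, 0.25, and ODC1, the enzyme of the first step of polyamine synthesis, 0.78 (11.48 against 12.26). AZIN1, an inhibitor of the antizymes that bind ODC1, gave 1.35, with 0.58 and −0.30 in other probe sets. SAT1, which acetylates polyamines, gave 0.76, with 0.65 and 0.21 in other probe sets. The antizyme genes OAZ1 and OAZ2 gave −0.08 and −0.23 and the oxidase genes PAOX and SMOX −0.15 and −0.16. Of the 13 compared 3 were called higher (23.1%, against 3.46% of all genes) and 2 lower, against 0.117% of all genes. The list median of 0.25 became −0.12 under quantile normalization and −0.08 under loess. AMD1 and SMS gave 0.83 and 0.83 after quantile normalization, and with the mean of all probe sets EIF5A gave −0.76 and DOHH −0.59.

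Of all the lists the proteasome was among the most uniform. Of 39 compared subunit and assembly genes 38 lay above 0 and 5 (12.8%, against 3.46% of all genes) were called higher. Their median was 0.45, against 0.32 for all genes in the bin of similar signal. Over the alternatives the median ran from 0.23 to 0.54. PSMD10, an assembly chaperone of the regulatory particle, gave 1.41 (6.36 against 7.77), and PSMA3 and PSMA1 of the core 1.24 and 1.24. The regulatory particle genes PSMD8 and PSMC2 gave 1.21 and 1.09. PSMC3 was the 1 below 0, at −0.01, and PSMB6 was at 0.00. Ubiquitin-conjugating enzymes had 15 of 18 above 0, a median of 0.34 and 0 called, at a signal where all genes had bin medians of 0.18 to 0.32. Quantile normalization took that list to 0.16. Chaperone genes had a median of 0.18 with 2 of 55 called (3.64%, close to the 3.46% of all genes). These were CCT6A of the cytosolic folding ring (1.24, and 0.83 in its other probe set) and HSPA5, the endoplasmic reticulum chaperone BiP, which was just at 2-fold (7.65 against 8.65). Quantile normalization took CCT6A to 0.89, HSPA5 to 0.64, and PSMA1, PSMA3 and PSMD8 to 0.97, 0.92 and 0.98.

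In metabolism 3 of 16 coenzyme Q and lipoate genes (18.8%, against 3.46% of all genes) were called higher. The list's median of 0.46 ran from 0.27 to 0.55 over the alternatives. PDSS1, which makes the side chain of coenzyme Q, read 6.37 under GM-CSF and 8.17 under Epo (1.81), and its partner PDSS2 gave 0.93. LIPT1, a lipoate transferase, gave 1.66 (4.48, just above the floor, against 6.14), and DLD, a lipoate-dependent dehydrogenase, 1.25. COX11, an assembly factor of cytochrome oxidase, gave 1.51 and 0.00 in its 2 compared probe sets. Of 25 glycolysis and hypoxia genes 20 lay above 0 with a median of 0.33 and 0 called, since PGK1 at 0.99 was just short of 2-fold in its brightest probe set. At their median signal of 7.61 all genes had bin medians of 0.18 to 0.32, and the list gave 0.11 under quantile normalization and 0.10 under loess.

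In trafficking 4 of 44 lysosomal genes (9.09%, against 3.46% of all genes) were called higher. These were LAMP2 (1.66), the protease inhibitor CSTB (1.53, from 8.26 to 9.80), and ATP6AP2 (1.18) and ATP6V1H (1.10) of the proton pump. The list median was 0.16, against 0.18 for all genes in the bin of similar signal. The pump genes gave 0.85 and 0.93 after quantile normalization. SRP9, of the signal recognition particle, gave 1.49 (7.44 against 8.94). Of its list's 40 genes 34 lay above 0 with a median of 0.34. At their median signal of 7.73 all genes had bin medians of 0.18 to 0.32, and quantile normalization took the list to 0.09. RAB21, RAB9A and RAB22A were the 3 of 33 RAB genes called (9.09%, against 3.46% of all genes). They gave 1.40, 1.09 and 1.04, around a list median of 0.00. The other probe sets of RAB22A gave 0.00 and 0.32.

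Few calls were made among genes of other blood lineages, whose lists are short and are to be read beside the 3.46% of all genes called higher. Of 17 lymphoid markers 0 were called and 15 lay below 0, with a median of −0.24, and 3 of 4 defining lymphoid markers (CD3E, CD79A and CD2) were above the floor on both arrays. Their signals were dim, with a median of 5.43, and the bins of that brightness had medians of −0.13 and −0.08. CD79A gave −0.68 and CD22 −0.69. Of 7 myeloid, 10 megakaryocyte and 8 mast cell, basophil and eosinophil genes 0 were called. HLA-DPA1 was the 1 of 11 MHC class II genes called, and gave 0.72 after quantile normalization. PTPRC, the leukocyte antigen CD45, gave 1.61, 0.70 and −0.25 in 3 probe sets, and SPN, the sialoglycoprotein CD43, −1.33 in its brightest probe set and −0.07 to −0.63 in 3 others. Of 16 histone genes 11 lay below 0 with a median of −0.22, and H3-3A was called lower (−1.33, from 7.14 to 5.81). A signal in bulk RNA cannot tell fewer cells of a type from less RNA per cell.

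**Figure D3:**
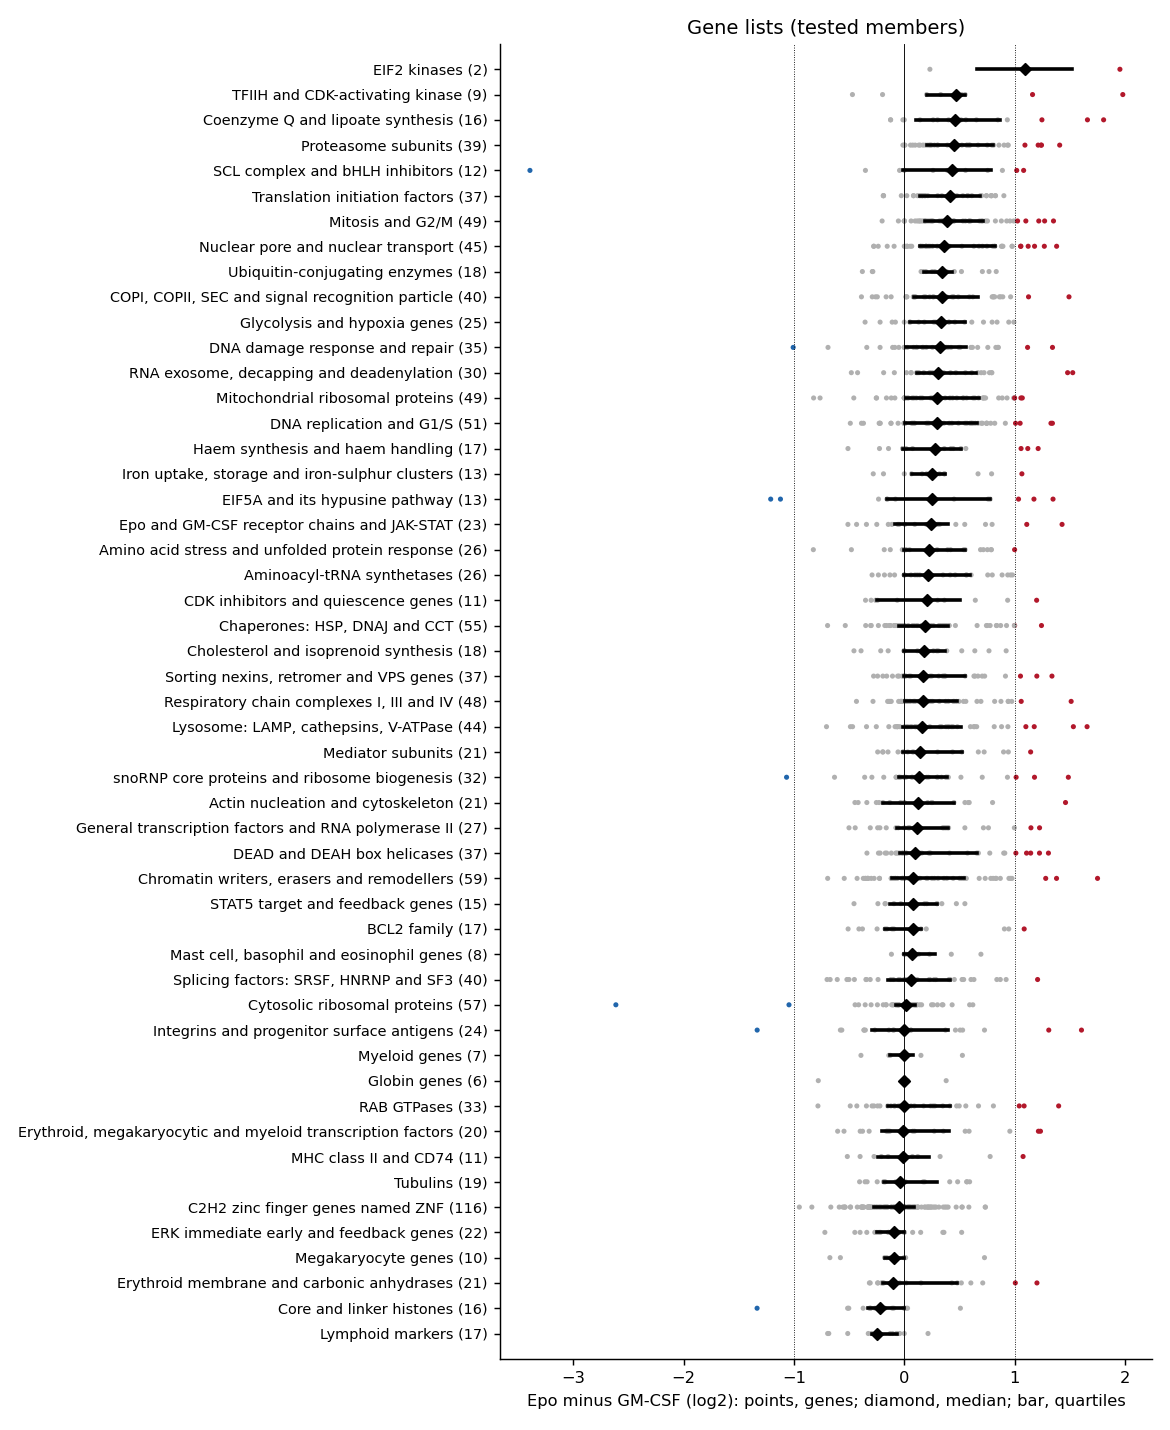
Difference Epo minus GM-CSF (log2, horizontal axis) of the compared members of 51 gene lists (rows, number compared in brackets), 1 point per gene, red at 2-fold higher and blue at 2-fold lower, with the list median as a diamond and the quartiles as a bar. Most medians lie above 0 (38 of 51), the proteasome has nearly all of its points to the right of 0 (38 of 39), and lymphoid markers lie at the bottom with a median of −0.24.

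In all, the 51 lists held 1428 compared genes. Of the 297 higher genes 85 were in a list and 212 were in none, and of the 10 lower genes 9 were in a list. Among the 212 were SUCLG2 and SLC38A2 described above, RTCA, which makes cyclic phosphate ends on RNA (1.82), ILF2 (1.54), TXNRD1, the thioredoxin reductase (1.49), and SUCLA2, the beta subunit of the ATP-forming succinyl-CoA ligase (1.37).

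The array controls differed between the same 2 arrays, and their part in the gene differences was not tested. The 28S ribosomal RNA signal was 7.82 under GM-CSF and 5.80 under Epo, with 3 of 3 probe sets lower. The 18S signal was lower in 6 of 6 probe sets, by a mean difference of −1.48, and the hybridization controls in 18 of 18, by −0.95. The poly(A) controls were 0.43 higher, with 20 of 27 probe sets higher and 5 lower. The 3' minus 5' signal, a measure of how far labelled RNA reaches, was 2.63 and 2.74 for beta-actin and 2.19 and 2.05 for GAPDH.

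By 28S signal the 5 arrays ranked as vector GM-CSF (7.82), DbSCL SF (7.07), DbSCL Epo (6.69), vector SF (6.55) and vector Epo (5.80). All differences from GM-CSF share the GM-CSF array and are given side by side. Over the 297 genes called higher, the median difference from GM-CSF was 0.51 on DbSCL SF, 0.67 on DbSCL Epo, 0.76 on vector SF and 1.19 on vector Epo. Over the 10 lower genes it was −0.28, −0.80, −0.81 and −1.26 in that order, and over all 8581 genes it was 0.00 on each. Both ends of this order, vector GM-CSF and vector Epo, are fixed by the call itself, so the order of the medians is a description of the chosen genes. The 3 arrays that the call did not use lay between these ends in the order of their 28S signals. Gene by gene, 102 of the 297 (34.3%) increased at every step as 28S decreased, against 345 of all 8581 (4.02%). Of the 10 lower genes 1, EIF5A, decreased at every step, against 2.20% of all tested genes. These shares too rest on end arrays that the call fixed.

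The DbSCL arrays gave a contrast that shares no array with this comparison, DbSCL Epo minus DbSCL SF, where 28S differed by less. Over the 297 genes its median was 0.16, with 209 (70.4%) above 0 and 0 at 2-fold, against a median of 0.00 and 42.5% above 0 over all tested genes. Over the 10 lower genes its median was −0.19, with 6 below 0 and 3 above, where 44.6% of all tested genes lay below 0. TCF3 was at 2-fold lower there (9.62 against 7.73), and GAR1 was higher by 0.68. That contrast sets Epo against SF, on arrays labelled DbSCL, and is no repeat of Epo against GM-CSF.

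The signal of TAL1, the gene whose mutant form the DbSCL virus carries, was no higher on these arrays: its brightest probe set read 8.29 on DbSCL SF against 8.31 on vector SF, and 8.31 on DbSCL Epo against 8.59 on vector Epo. Whether this probe set reads the transgene is not known here, so the DbSCL label stands without a check.

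**Figure D4:**
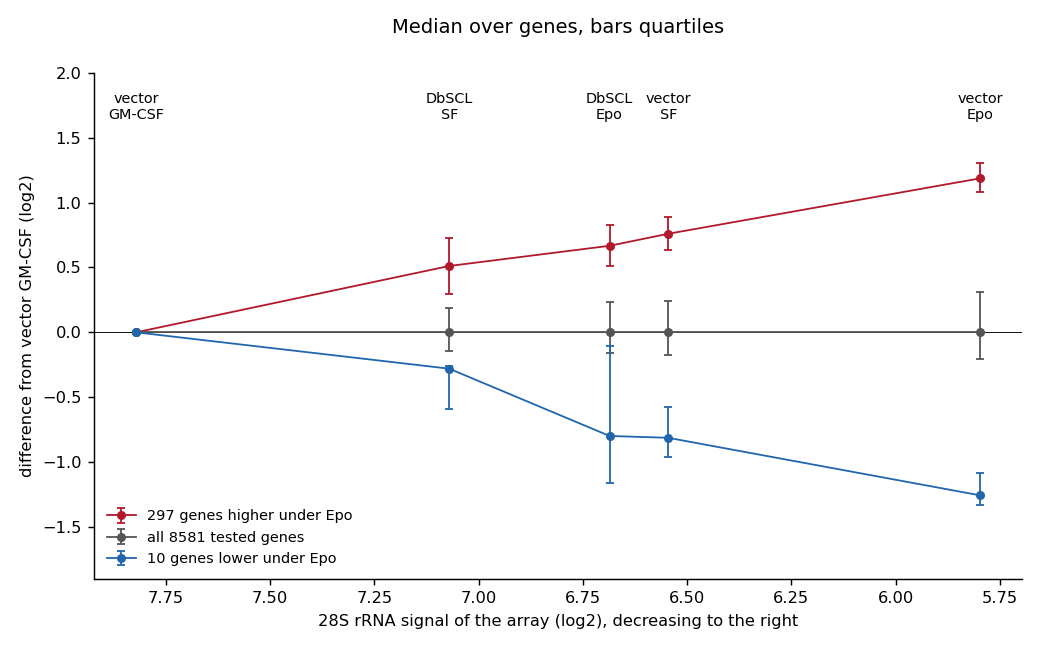
Median difference from the vector GM-CSF array (log2, vertical axis; bars, quartiles over genes) against the 28S rRNA signal of each array (log2, horizontal axis, decreasing to the right), for the 297 genes called higher (red), the 10 called lower (blue) and all 8581 tested genes (grey). Both end arrays were used to call the red and blue genes. The red line climbs from 0 to 1.19 and the blue line descends to −1.26 in the order of the 28S signal, while the grey median stays at 0.00 on each array.

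All 297 higher genes were also above GM-CSF on the SF array, against 3943 of all 8581 tested genes. The call used the same GM-CSF array, so a low reading there raises every difference from it for the called genes. The shares given here for called and for all tested genes are therefore not an even comparison. Of the 297, 31 differed by less than 0.5 between SF and GM-CSF. Of these 31 RNF138, a ubiquitin ligase, was the 1 that was also at 2-fold on the DbSCL Epo array. On that array 32 of the 297 (10.8%) and 0.606% of all tested genes were at 2-fold above GM-CSF. RNF138 read 7.51 under GM-CSF, 7.99 under SF, 8.53 under Epo, 7.61 in DbSCL cells under SF and 8.56 in DbSCL cells under Epo. Both Epo arrays were above the other 3, by 0.54 log2 at the least in vector cells. The choice of this gene fixed that order against GM-CSF and vector SF, so only DbSCL SF (7.61) was free. RNF138 gave 0.67 after quantile normalization. RPL27A and H3-3A were the 2 lower genes with a difference under 0.5 between SF and GM-CSF.

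Other genes were high on the vector Epo array and not on DbSCL Epo. In 5 of the 297 (1.68%) the DbSCL Epo signal was at or below that of vector GM-CSF, against 53.5% of all tested genes. This comparison too reuses the GM-CSF array of the call. These 5 were HMG20B, CD36, ID2, HLA-DPA1 and HEBP1, singled out after their values were seen. CD36 read 6.01 under GM-CSF, 6.53 under SF, 7.22 under Epo, 5.84 in DbSCL cells under SF and 5.68 in DbSCL cells under Epo. HEBP1 read 6.33, 6.89, 7.39, 6.00 and 5.99 in that order, and HLA-DPA1 8.20, 8.66, 9.28, 7.76 and 7.98. In these 3 genes both DbSCL arrays were below all 3 vector arrays. The same held for ID2, with 6.56 on DbSCL SF and 6.79 on DbSCL Epo against 7.20 under GM-CSF, its lowest vector value. A dimmer probe set of ID2 and of HLA-DPA1 repeated this order. That of CD36 did not, with 4.69 on DbSCL Epo and 4.63 under GM-CSF. ALAS1 was similar, with 5.57, 6.06, 6.69, 5.53 and 5.62, although its DbSCL Epo signal was just above GM-CSF.

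**Figure D5:**
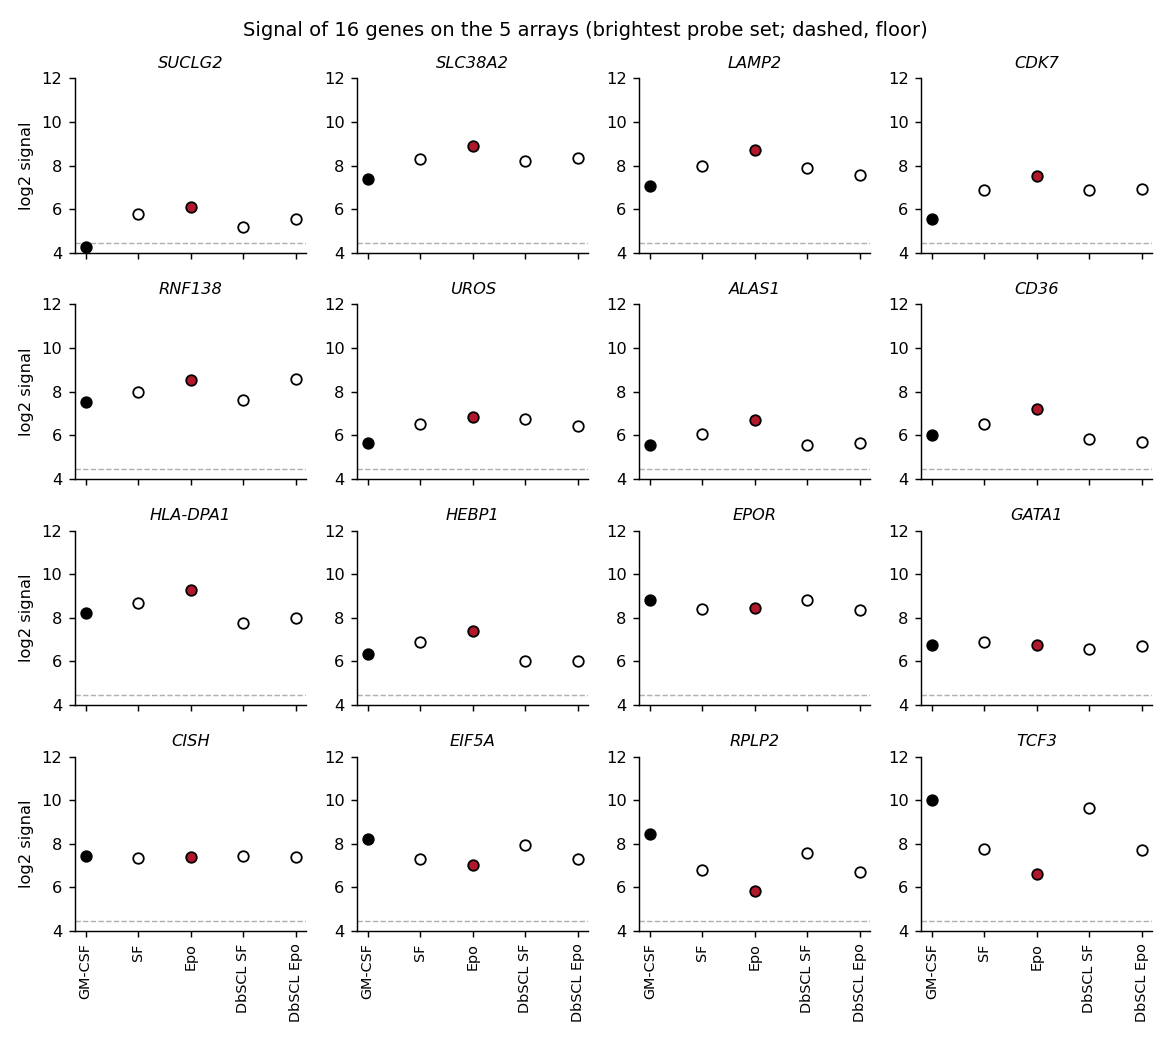
Log2 signal (vertical axis) of the brightest probe set of 16 genes on the 5 arrays (horizontal axis), 1 point per array, with vector GM-CSF in black, vector Epo in red and the floor of 4.45 dashed. SUCLG2 is below the floor under GM-CSF. RNF138, chosen for high values on both Epo arrays, reads 8.53 and 8.56 there. CD36, HEBP1 and HLA-DPA1 are highest on vector Epo and low on both DbSCL arrays. GATA1 and CISH are level, and TCF3 drops from 10.00 to 6.60.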

How the data were processed

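The deposited table holds 1 log2 value per probe set and array, summarised by the authors. The unit was taken as log2 from the range of the values, 2.08 to 13.8. Per the labels' protocols, RNA came from a column kit and was made into biotin-labelled target by the array maker's method for small samples. The normalization and the summary method are not given in the sources used here. If arrays were scaled to each other, a shift of most genes together would not be seen. The column medians were 4.98 for GM-CSF and 4.89 for Epo, and 9.73% of the single-symbol probe sets held the same value on both arrays.

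Gene symbols came from GEO's platform annotation: 1043 probe sets had several symbols, 2107 had none and 68 were controls. The RefSeq gene table held the Entrez identifiers of 19053 probe sets and changed 0 symbols. Values were used as deposited, and differences are of values after the floor. With 1 array per group, the number of arrays limits the precision, and no test was made. The counting was checked on simulated data. Python 3.11.15, numpy 2.4.6, pandas 2.3.3 and statsmodels 0.14.6 were used.

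The members and the 51 gene lists were chosen with earlier results of these data known. Named genes are those agreeing at 2-fold in at least 2 probe sets, up to 4 called members of each list (or the member with the largest difference), receptor genes with TAL1, GATA1 and KIT, genes with an SF difference under 0.5, the 6 called genes with the widest spread between probe sets, and the hypusine pathway. Other list members and genes in no list were named after their values were seen. Not every gene named by the rule is printed. Alternatives were quantile normalization, median centring, loess, other floors or none, the mean of a gene's probe sets, and leaving out _x_at and _s_at probe sets.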

Additional observations from a re-analysis of the deposited data

How the results depend on the processing

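Quantile normalization of the 5 arrays gave 176 genes higher and 26 lower under Epo, 259 and 41 probe sets, and 6 and 3 genes in at least 2 probe sets. It kept 168 of the 297 higher and all 10 lower genes, and the share of calls that were higher was 87.1% against 96.7%. Loess gave 209 genes higher (90.9% of calls) and 21 lower, 34 probe sets lower, and 6 and 3 genes in at least 2 probe sets. Centring each array on its median moved the median of all genes to 0.09 and gave 411 genes higher and 7 lower, losing GAR1, RPL27A and TELO2, and 23 and 0 genes in at least 2 probe sets. With the mean of a gene's probe sets 4 genes were lower (GAR1, H3-3A, RPL27A and RPLP2). Without _x_at and _s_at probe sets 187 genes were higher and 6 lower, 198 and 6 probe sets, and 1 and 0 genes in at least 2 probe sets, since 5337 genes remained to compare, and TAL1 reversed to −0.018. Of 1022 values of the named genes under the alternatives, 826 stayed within the estimated spread, 195 moved and 1 reversed. Of 408 list medians 70 moved by more than it. No paired analysis was possible because each group had 1 array, and no array could be left out. Signals near the floor limit what can be seen of dim genes, and the normalization of the deposited values is unknown.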
